A study of Mus musculus with 83 samples.

Results

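The gene set described here holds 9 genes, Psat1, Phgdh, Psph, Shmt2, Mthfd2, Asns, Atf4, Ddit3 and Trib3, which act in serine synthesis, mitochondrial one-carbon metabolism and the ATF4 branch of the integrated stress response. They were taken by symbol from the 11144 genes of the culture tables, and by RefSeq identifier from the 29082 transcripts of a tissue table. All 9 had a value in every library. They were chosen by their place in these pathways and by their FPKM and RPKM levels in these same libraries, so the levels are a description and carry no test.

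The RNA came from brown preadipocytes, which give rise to thermogenic fat cells, isolated from interscapular brown fat of newborn C57BL/6J mice and immortalized with a retrovirus carrying the SV40 large T antigen. All 4 culture libraries come from these immortalized cells with floxed Pparg alleles (Pparg flox/flox), so none represents primary cells. The cells were proliferating on day -3. They were confluent on day 0, when adipogenesis was started with dexamethasone, IBMX, indomethacin, insulin and T3. They were immature adipocytes on day 2, after which the medium held insulin and T3, and mature adipocytes on day 7. The tissue library was made from the interscapular brown fat of C57BL/6J mice aged 16 weeks, whose further genotype the labels do not give. With a single library for each day and for the tissue, the differences below could not be set against a spread between replicates, and no p-values were computed.

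The culture values are FPKM and the tissue values RPKM, both levels scaled for transcript length and for mapped fragments or reads. Median levels of the 4 culture libraries lay between 12.2 and 13.4 FPKM, and their depth is unknown. For the tissue library, the estimated worth of 1 read on 1 kb was 0.187 RPKM. The 7 adipocyte markers summed to 63.1 FPKM on day -3 and 7187 FPKM on day 7. Of the 6 brown fat markers, 5 had culture values, which summed to 22.8 FPKM on day 7, with Ucp1 at 1.22 FPKM, against a sum of 3266 RPKM for all 6 in the tissue. The day 7 cells therefore carried adipocyte markers, while the markers specific to brown fat were low in them.

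Cells make serine from the glycolytic intermediate 3-phosphoglycerate in a chain of reactions catalysed by PHGDH, PSAT1 and PSPH. Mitochondrial SHMT2 splits serine into glycine and a one-carbon unit on folate, which MTHFD2 oxidizes and which is used to build purines and thymidylate. ATF4 is a transcription factor whose translation increases when the initiation factor eIF2 is phosphorylated under amino acid shortage, endoplasmic reticulum (ER) stress or mitochondrial stress. Genes of serine synthesis, mitochondrial folate metabolism and asparagine synthesis, and the stress genes Ddit3 and Trib3, are known ATF4 targets. Since much of the control of ATF4 is translational, the level of its mRNA does not measure its activity.

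ATF4 pairs with C/EBP factors on a composite element whose core reads TGATGNAA, where N is any base. Windows of 250 bases before to 50 bases after each annotated start (RefSeq, build GRCm38.p6) were searched on both strands, and the 9 genes had 10 windows, 2 of them for Psat1. The core was found in 2 of the 9 genes, Asns and Trib3, where 4.51% of 27025 genes, or 3.97% of all 32851 windows, held it. In Asns, the amidotransferase that makes asparagine, the match begins 23 bases before the start, within chr6:7693210-7693253 on the minus strand. In Trib3, a pseudokinase that binds AKT and ATF4, the match lies on the opposite strand from base 15 after the start, within chr2:152344028-152344057 on the minus strand. These stretches are shown because they hold the only matches to the core among the 9 genes, with the match in capitals.
Asns: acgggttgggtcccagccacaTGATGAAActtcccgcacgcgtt
Trib3: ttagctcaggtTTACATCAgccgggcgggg

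A related form, TGNTGCAA, was chosen after the letters of these windows had been read and is given as a description only. It was present for Psat1 and Trib3, and for 3.72% of all genes, or 3.22% of all windows, and both forms include the word TGATGCAA. The Psat1 match, in 1 of its 2 windows, begins 136 bases before the start, within chr19:15925167-15925216 on the minus strand. The Trib3 match begins 33 bases before the start, within chr2:152344065-152344114 on the minus strand. Both matches read TGGTGCAA and are followed by the same 4 bases, as the stretches show.
Psat1: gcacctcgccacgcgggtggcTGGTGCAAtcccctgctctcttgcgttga
Trib3: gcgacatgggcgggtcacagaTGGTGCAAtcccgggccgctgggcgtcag

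Trib3 thus held matches to both forms and Asns and Psat1 to 1 form each. The windows of Phgdh, Psph, Shmt2, Mthfd2, Atf4 and Ddit3 held neither, which says only that these letters are not in those windows. Trib3 was the gene of the set with the widest range over the culture, and Asns and Psat1 were among those with a narrow range.

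Across the culture, the set divided into genes with a narrow range and a pair with a wide one. The 6 genes Psat1, Psph, Shmt2, Mthfd2, Asns and Atf4 stayed within 1.76-fold between their lowest and highest of the 4 libraries. Phgdh, the first enzyme of serine synthesis, spanned 2.34-fold. Ddit3, which encodes the stress factor CHOP, spanned 5.36-fold, and Trib3 spanned 12.2-fold. In each comparison, genes count as higher or lower where log2(FPKM + 1) differed by at least 1, which is a rule of size for 2 libraries and not a test. In bulk samples such as these, fewer cells of a type and less RNA per cell cannot be told apart.

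**Figure D1:**
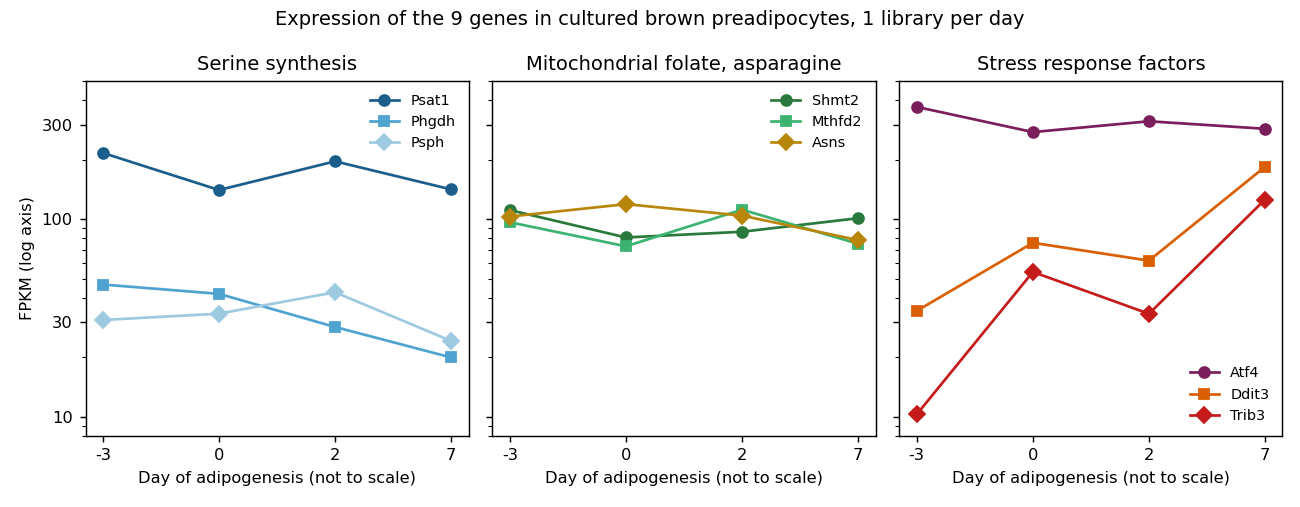
FPKM on a log axis (vertical) at the 4 culture days (horizontal), 1 library per day, in 3 panels by role; each point is 1 library, so there are no error bars. Psat1 and Atf4 stayed above 140 FPKM throughout, while Trib3 went from 10.3 FPKM on day -3 to 126 on day 7 and Ddit3 from 34.3 to 184.

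Among the serine synthesis enzymes, Psat1, the aminotransferase of the second step, was the most abundant, at 216 FPKM on day -3, 140 on day 0, 196 on day 2 and 141 on day 7. It was among the 318 most abundant genes of the table in every library. Phgdh, the dehydrogenase that commits 3-phosphoglycerate to serine, was at 46.7, 41.8, 28.4 and 19.9 FPKM in the same order. It was lower at each successive day, except that its day 0 difference turned to 0.051 on the log2 scale once the libraries were rescaled to a common total, and its place among all genes went from the 84.3rd to the 62.9th percentile. Psph, the phosphatase of the last step, was at 30.9 FPKM on day -3, 33.2 on day 0, 42.6 on day 2 and 24.2 on day 7. It was highest on day 2 and lowest on day 7.

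The 3 enzymes of this chain therefore did not share 1 course. The ratio of Psat1 to Phgdh was 4.64 on day -3, 3.36 on day 0, 6.90 on day 2 and 7.09 on day 7. Phgdh was the only gene of the set counted as lower between day -3 and day 7, with a log2 difference of -1.19, and 11.6% of all compared genes had a more negative one. The annotation also lists a Phgdh pseudogene, and how reads shared with it were counted is not stated in the sources used here.

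In the mitochondrial folate pathway, Shmt2, the serine hydroxymethyltransferase of mitochondria, was at 111 FPKM on day -3, 80.7 on day 0, 86.3 on day 2 and 101 on day 7. Its highest library was 1.38 times its lowest, and 15.3% of the genes reaching 10 FPKM had a smaller range. Mthfd2, the methylenetetrahydrofolate dehydrogenase known from proliferating and embryonic cells, was at 96.4, 72.8, 112 and 75.0 FPKM. It was higher on days -3 and 2 than on days 0 and 7, as was Psat1. The root mean square distance between the centred log2 profiles of Psat1 and Mthfd2 was 0.128, the smallest of any pair within the set, followed by 0.130 for Shmt2 and Atf4.

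Asns was at 103 FPKM on day -3, 119 on day 0, 104 on day 2 and 78.3 on day 7. It differed by less than 2-fold in every comparison, with a highest level at confluence. Atf4 mRNA was at 370 FPKM on day -3, 276 on day 0, 313 on day 2 and 287 on day 7, and ranked between 69th and 104th of all 11144 genes. Of the genes reaching 10 FPKM, 12.5% had a smaller range over the 4 libraries than Atf4. The Atf4 message was thus abundant in every library and among the less variable ones.

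Ddit3 was at 34.3 FPKM on day -3, 75.9 on day 0, 61.6 on day 2 and 184 on day 7. Trib3 was at 10.3, 54.0, 33.2 and 126 FPKM on the same days. Both genes were lowest in the proliferating culture, higher at confluence, somewhat lower on day 2 and highest on day 7. The ratio of Ddit3 to Atf4 was 0.0928 on day -3, 0.275 on day 0, 0.197 on day 2 and 0.642 on day 7. The ratio of Trib3 to Ddit3 was 0.300 on day -3 and between 0.538 and 0.712 at the later days.

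The first comparison set the confluent culture against the proliferating one. Trib3 was 5.25-fold higher on day 0 and Ddit3 2.21-fold higher, with log2 differences of 2.29 and 1.12. These were the only 2 of the 9 genes counted as higher, and none was counted as lower, where 11.3% of the 10602 compared genes were higher and 5.43% were lower, 16.8% in all. Trib3 stood above 99.0% of all compared genes and Ddit3 above 91.0%. The other 7 had log2 differences from -0.62 for Psat1 to 0.21 for Asns, and the median over the set was -0.15 against 0.06 over all genes.

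Between day 0 and day 2, after induction, none of the 9 genes differed by 2-fold, while 6.18% of all 10717 compared genes were higher and 10.7% lower, 16.9% in all. Mthfd2 had a log2 difference of 0.61 and Psat1 of 0.48. Trib3 was at -0.69 and Phgdh at -0.54. All 7 adipocyte markers were at least 2-fold higher at this step, and 3 of the 7 were at the next one, day 7 against day 2.

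Between day 2 and day 7, Trib3 was 3.79-fold and Ddit3 2.99-fold higher on day 7, with log2 differences of 1.89 and 1.56. None was counted as lower, and 9.62% of the 10666 compared genes were higher and 5.14% lower, 14.8% in all. All 3 serine synthesis genes, Mthfd2, Asns and Atf4 had negative log2 differences, from -0.79 for Psph to -0.13 for Atf4, and Shmt2 was at 0.23. The median over the set was -0.41 against 0.02 over all genes.

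Across the whole course, day 7 against day -3, Trib3 had a log2 difference of 3.49 and Ddit3 of 2.39, and Phgdh was the gene counted as lower. Of the 10828 compared genes, 20.3% were higher and 14.7% lower, 35% in all. The remaining 6 genes lay between -0.61 for Psat1 and -0.14 for Shmt2, which stood at 0.0010 once the libraries were rescaled to a common total. The 4 comparisons share libraries, so they are not independent of each other.

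**Figure D2:**
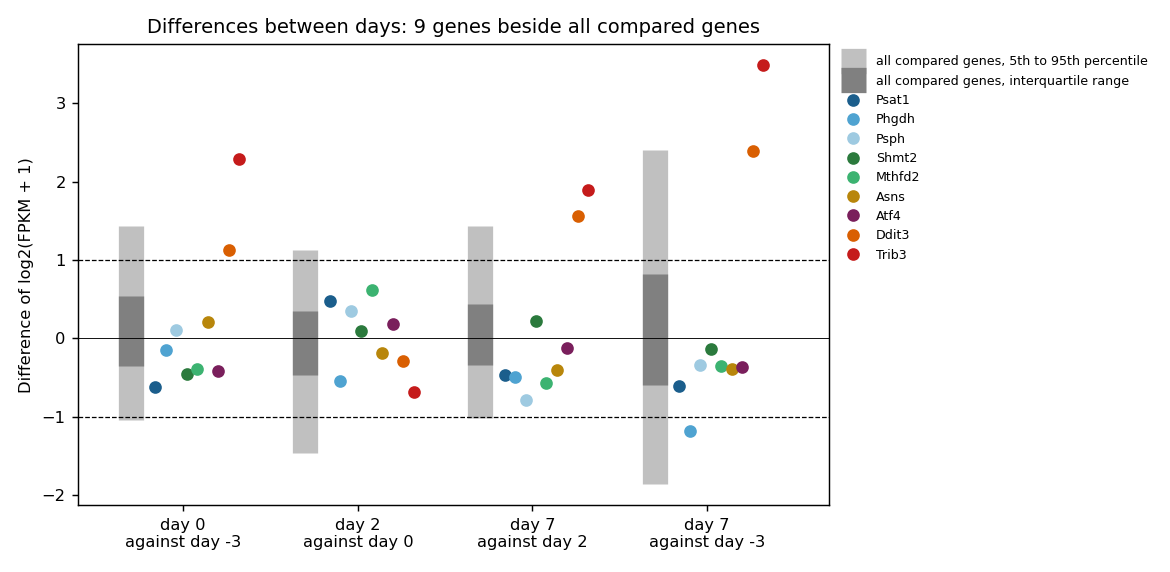
Difference of log2(FPKM + 1) (vertical) in the 4 comparisons of days (horizontal), with 1 library per day; coloured points are the 9 genes, light bars span the 5th to 95th percentile and dark bars the interquartile range of all compared genes, and dashed lines mark a difference of 1. Trib3 and Ddit3 lie above the dashed line in 3 of the 4 comparisons, at 3.49 and 2.39 for day 7 against day -3, and Phgdh lies below it in the last, at -1.19.

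Some annotated neighbours share bases with these genes, and whether counting used strand is not stated in the sources used here. The span of Ddit3 overlaps that of Mars by 71 bases and that of Mbd6 by 77 bases in build GRCm38.p6. Mars was at 74.1 FPKM on day -3 and 56.4 on day 7, and Mbd6 at 21.1 and 42.7. Shmt2 shares 32 bases with Ndufa4l2, which was at 0.144 FPKM on day -3 and 115 on day 7 while Shmt2 stayed within 1.38-fold. Psph shares 88 bases with Cct6a, which had no culture value and was at 30.8 RPKM in the tissue, where Psph was at 8.88.

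The genes with the most similar courses were sought among 7856 others that reached 10 FPKM, by the root mean square distance of centred log2 profiles over the 4 libraries. With 4 libraries such likeness is easily reached: 258 genes lay within a distance of 0.1 of Atf4, and 153 within 0.1 of Psat1. For Ddit3 there were 6, led by Ndufaf3 at a distance of 0.04, then Ddt and Jak3. No gene came that close to Trib3. Its nearest was Trp53inp2, at 0.12, with 5.65 FPKM on day -3, 28.3 on day 0, 17.3 on day 2 and 58.2 on day 7, followed by Car11 and Flt3l. Near Psat1 were Pppde2 and Clptm1l, near Phgdh Sep15, Ifngr2 and Nt5c, and near Psph Fndc3b, Uxs1 and Sar1a. Rock1, 2310003L22Rik and Nudt19 came nearest to Shmt2, and Gtf2e1, Cdca5 and Ints2 to Mthfd2. For Asns these were A230046K03Rik, Rab11fip3 and Edc3, and for Atf4 they were Rnpc3, Dhx8 and Rpl37.

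A list of 22 other genes known to respond to ATF4, without the 9, was compared at the same steps. It holds transcription and signalling genes, and also others such as the enzymes Gpt2 and Pck2. More of its genes were on the higher side at the steps where Ddit3 and Trib3 were higher. Of 20 with values, 11 were at least 2-fold higher and 1 lower on day 0 against day -3, where 11.3% of all genes were higher, and the list median was 1.12 on the log2 scale against 0.06 over all genes. At day 2 against day 0 the count was 1 higher and 1 lower, where 6.18% of all genes were higher, with a median of -0.09 against -0.01. At day 7 against day 2 it was 7 higher and 0 lower, where 9.62% of all genes were higher, with a median of 0.54 against 0.02. Across the whole course 13 were higher and none lower, where 20.3% of all genes were higher, with a median of 1.46 against 0.07. Many of these genes are also induced by other signals, such as low oxygen, p53 or adipogenic factors, and the part of ATF4 was not tested.

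Ndrg1, a gene known to respond to low oxygen and to differentiation, was at 12.8 FPKM on day -3, 59.7 on day 0, 23.9 on day 2 and 180 on day 7. Its order of days was that of Trib3. Pck2, the mitochondrial form of phosphoenolpyruvate carboxykinase, was at 38.0, 134.7, 97.8 and 106 FPKM, and Gpt2, a mitochondrial alanine aminotransferase, at 9.02, 33.8, 18.5 and 13.1. Both were highest at confluence and not on day 7. Vldlr, a lipoprotein receptor, was at 2.75 FPKM on day -3 and 41.5 on day 7, and Gadd45a, a growth arrest gene, at 6.19 and 65.5. Vegfa, the angiogenic growth factor, was at 154 FPKM on day 2 and 567 on day 7. Gdf15, a secreted stress hormone, was the 1 listed gene lower on day 0, at 8.47 FPKM on day -3 and 3.15 on day 0, and was at 13.4 on day 7.

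The amino acid supply lists did not share that direction as a whole. Of 18 cytosolic tRNA synthetases, several of them known ATF4 targets, none was higher in any comparison. On day 0 against day -3, 1 was lower, with a list median of -0.47 against 0.06 over all genes. Across the whole course 4 were lower, among them Tars, at 116 FPKM on day -3 and 43.3 on day 7, Kars, at 155 and 60.1, and Farsa, at 59.0 and 24.5. Over all genes 11.3% were higher and 5.43% lower on day 0, and 20.3% and 14.7% across the whole course. Small counts of lower genes say little beside those shares. Among 11 genes of amino acid synthesis other than Asns, 3 were higher and 1 lower on day 0. The 3 were Pycr1, a proline synthesis enzyme, and Gpt2 and Pck2, which also stand in the ATF4 target list. Pycr1 had a log2 difference of 1.64 from 10.9 FPKM on day -3. The 1 lower was Bcat1, a branched-chain aminotransferase, at 108 and 49.1. Glul, the glutamine synthetase, was at 12.3 FPKM on day 0 and 245 on day 2.

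Of 11 amino acid transporters, 1 was higher and none lower on day 0, 2 were higher and 1 lower on day 2, and none was higher and 2 were lower on day 7 against day 2. Over all genes 11.3% were higher and 5.43% lower at the first of these steps, 6.18% and 10.7% at the next, and 9.62% and 5.14% at the last, and counts this small say little beside those shares. Slc38a1, a glutamine transporter, was at 61.0 FPKM on day -3, 46.3 on day 0, 15.2 on day 2 and 2.45 on day 7. Slc7a5, the light chain of the large neutral amino acid transporter and an ATF4 target, was at 98.6 FPKM on day -3, 82.3 on day 0, 93.2 on day 2 and 36.5 on day 7. Slc1a5, another glutamine transporter, was at 72.4 FPKM on day 0 and 478 on day 2. Slc6a9, a glycine transporter, was at 11.2 FPKM on day -3 and 26.5 on day 0. The transporters thus showed no common direction.

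The other 6 genes of mitochondrial folate metabolism included courses with a wider range than those of Shmt2 and Mthfd2. Aldh1l2, which oxidizes formyl-folate in mitochondria, was at 19.0 FPKM on day -3, 69.5 on day 0, 22.3 on day 2 and 63.4 on day 7. It was counted as higher at the same 2 steps as Ddit3 and Trib3, and as lower between them. Mthfd1l, the mitochondrial formyl-folate synthetase, was at 26.3, 13.8, 7.52 and 11.1 FPKM. Sfxn1, the mitochondrial serine transporter, was at 52.7, 38.7, 118 and 87.4 FPKM. Across the whole course 1 of the 6 was higher and 3 were lower, where 20.3% of all genes were higher and 14.7% lower.

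Purine synthesis, a main use of one-carbon units, had 4 of 11 genes lower and none higher on day 0 against day -3, with a median of -0.92 on the log2 scale. Over all genes 5.43% were lower and 11.3% higher at that step, with a median of 0.06. Atic, the enzyme that closes the purine ring, was at 116 FPKM on day -3 and 33.6 on day 0, and Prps1, a phosphoribosyl pyrophosphate synthetase, at 34.0 and 15.4. Shmt2 and Mthfd2, at -0.46 and -0.40, had smaller differences in the same comparison. Across the whole course 1 of the 11 was higher and 4 were lower, with a median of -0.90. Over all genes 20.3% were higher and 14.7% lower there, with a median of 0.07. The 1 higher was Impdh1, a step of guanine nucleotide synthesis, at 28.3 FPKM on day 0, 126 on day 2 and 245 on day 7. In the cytosolic folate and methionine cycle, 10 of 18 genes had values, of which 1 was higher and 1 lower on day 0. Glycine cleavage and serine use had 3 higher and 1 lower of 9 on day 0, with Amt, a subunit of the glycine cleavage system, at 1.72 FPKM on day -3 and 8.14 on day 0.

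Genes upstream of ATF4 and of the other stress branches gave the following counts. On day 0 against day -3, 11.3% of all genes were higher and 5.43% lower. Of 13 genes of the eIF2 kinases, phosphatases and translation factors, 1 was higher and 1 lower on day 0. The 1 higher was Eif2ak2, the double-stranded RNA kinase PKR, at 10.0 FPKM on day -3 and 30.3 on day 0. Ppp1r15a, the stress-induced phosphatase subunit also listed among the ATF4 targets, was at 19.2 FPKM on day 2 and 39.7 on day 7. Of 16 ER chaperone and XBP1 or ATF6 genes, none was higher or lower on day 0 against day -3. At day 7 against day 2, where 9.62% of all genes were higher, the 1 higher gene was Xbp1. Xbp1, a transcription factor of the unfolded protein response, was at 59.3 and 124 FPKM. Across the whole course 5 were higher and 1 lower, where 20.3% of all genes were higher and 14.7% lower, and the list median was -0.18. Among the 5 were Dnajb9, an ER co-chaperone, at 4.46 FPKM on day -3 and 17.7 on day 7, and Ern1, the sensor IRE1, at 6.23 and 21.3, and the 1 lower was Calr, the chaperone calreticulin, at 478 and 218. Of 9 mitochondrial stress genes, 5 had culture values, and 2 of these were higher and 0 lower at day 7 against day 2. The 2 were Lonp1, a matrix protease, at 93.8 FPKM on day 2 and 325 on day 7, and Hspa9, a matrix chaperone, at 203 and 547. Of the 10 genes of the mTORC1 and MYC list, 8 had culture values, and Myc and Mycn themselves had none. None of the 8 was higher or lower in any comparison, where 14.8% to 35% of all genes were.

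A further list, of genes tied to TRIB3 and CHOP, includes C/EBP factors and AKT kinases, known to interact with CHOP or TRIB3. It also holds the other Tribbles genes, which are relatives of Trib3 and are not listed as its partners. Of the 9 genes of this list compared, other than Trib3, 0 were higher and 1, Trib1, was lower on day 0. On day 2, 4 were higher and 0 lower, Trib1 and Trib2 among the 4. Over all genes 11.3% were higher and 5.43% lower on day 0, and 6.18% and 10.7% on day 2. Trib1 was at 14.9 FPKM on day -3 and 3.09 on day 0, where Trib3 was at 10.3 and 54.0, so these related genes were on opposite sides of the rule. Cebpa, a master factor of adipocytes whose product CHOP can bind, was at 1.15 FPKM on day 0 and 177 on day 2. Akt2, an insulin signalling kinase, was at 22.2 FPKM on day 2 and 58.4 on day 7.

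**Figure D3:**
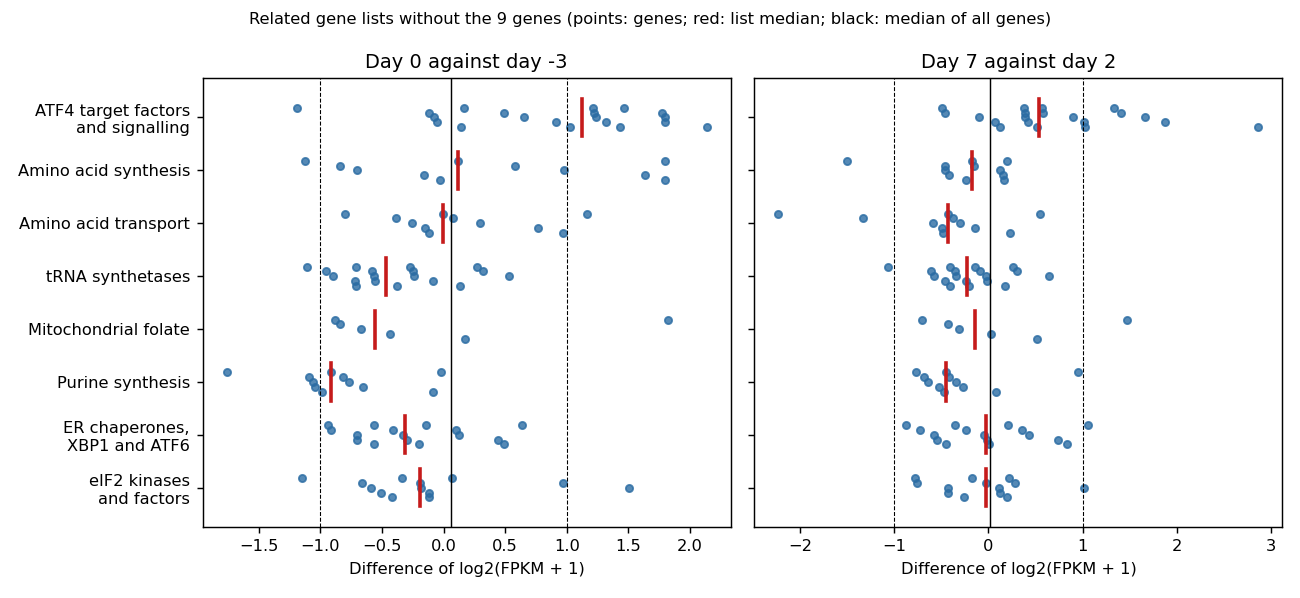
Difference of log2(FPKM + 1) (horizontal) for each gene (points) of 8 related lists (vertical), without the 9 genes themselves, between 2 culture libraries in each panel; red bars are list medians, the black line is the median of all compared genes and dashed lines mark a difference of 1. The ATF4 target list has a median of 1.12 on day 0 against day -3 and 0.54 on day 7 against day 2, while the tRNA synthetases and purine genes have medians of -0.47 and -0.92 in the first panel.

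The tissue was compared with the day 7 culture by rank, because FPKM and RPKM come from different processing. The ranking covered 10461 genes with both a culture and a tissue value that reached 1 FPKM on day 7 or 1 RPKM. Each was given a percentile among these genes in each library, so tissue genes absent from the culture tables were not ranked. A difference of 25 percentile points, a size chosen after values had been seen, was counted. Of the 9 genes, 5 were at least 25 points lower in the tissue and none as much higher, where 10.7% of all genes were lower by that much. Any lower rank was seen for 8 of the 9 and for 49.5% of all genes.

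Psat1 had 141 FPKM in the mature culture and 0.775 RPKM in brown fat, going from the 97.0th to the 11.8th percentile. Of all ranked genes, 20 or 0.191% were at least that much lower in the tissue, Psat1 included. Its second listed transcript was at 0.733 RPKM. Mthfd2 was at 75.0 FPKM and 0.723 RPKM, from percentile 92.1 to 11.2, and Phgdh at 19.9 FPKM and 0.300 RPKM, from percentile 60.8 to 6.02. For scale, 3 reads on 1 kb of transcript are worth 0.561 RPKM in the tissue library. Shmt2 was at 101 FPKM and 4.72 RPKM, 46.9 points lower, and Trib3 at 126 FPKM and 3.46 RPKM, 57.8 points lower.

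The other 4 genes kept closer ranks. Psph was at the 67.1st percentile in culture and the 67.4th in the tissue, with 24.2 FPKM and 8.88 RPKM, so Psph did not have the low rank of Psat1 and Phgdh. Asns was at 22.9 RPKM, 5.62 points lower, and Atf4 at 30.7 RPKM, 8.30 points lower. Ddit3 was at 15.7 RPKM, 17.3 points lower. Within the tissue the ratio of Psat1 to Psph was 0.0872, against values from 4.23 to 7.01 in the culture. Shmt2 to Mthfd2 was 6.54 in the tissue and at most 1.35 in the culture.

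**Figure D4:**
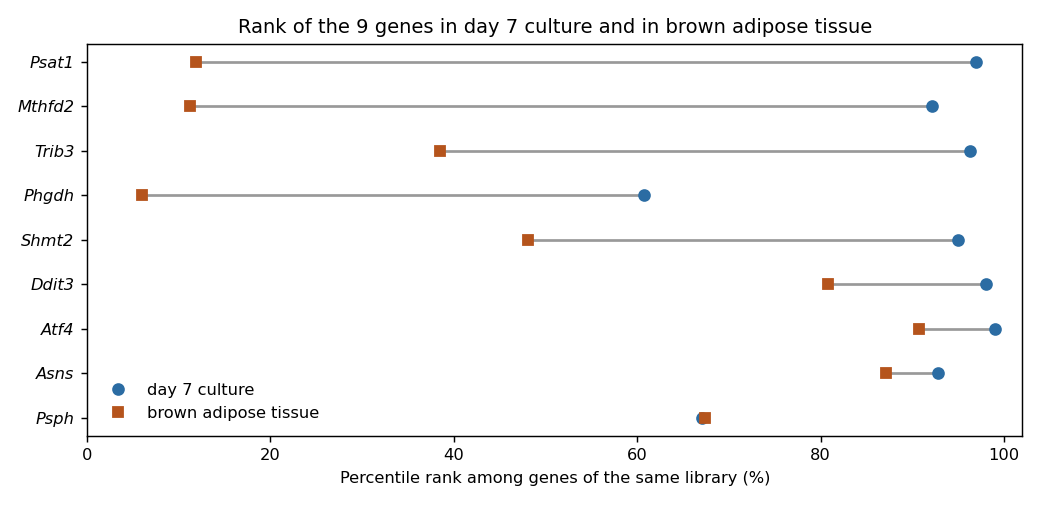
Percentile rank (horizontal) for the 9 genes (vertical), in the day 7 culture (circles) and in brown adipose tissue (squares), 1 library each, ordered by the difference. Ranks in each library are among the same 10461 genes, which have both a culture and a tissue value. Psat1 is 85.1 points and Mthfd2 80.9 points lower in the tissue, while Psph differs by 0.296 points.

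Set against the other culture days, the tissue ranks of Psat1, Phgdh, Shmt2 and Mthfd2 were lower by at least 44.4 points on every day. That of Trib3 was 48.6 and 38.4 points lower than on days 0 and 2, but 3.93 points lower than on day -3, where Trib3 was itself low. Ddit3 ranked 4.51 points higher in the tissue than on day -3.

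In related lists, Aldh1l2 was at 63.4 FPKM on day 7 and 0.0930 RPKM in the tissue, 87.3 points lower, and Mthfd1l at 11.1 FPKM and 0.10 RPKM, 37.9 points lower. They were the 2 of the other 6 mitochondrial folate genes lower by at least 25 points. In the same 6, Slc25a32 was 48.2 points higher, and the median was 2.94 points higher in the tissue. Of 10 genes of glycine cleavage and serine use, 2 were lower and 4 higher by at least 25 points. Their median was 13.3 points higher in the tissue. Slc7a5 was at 36.5 FPKM and 0.160 RPKM, 75.0 points lower, and Aldh18a1, the first enzyme of proline synthesis, at 60.4 FPKM and 0.584 RPKM, 79.6 points lower. Of the 20 ATF4 targets 6 were at least 25 points lower and 0 as much higher, among them Pck2 at 106 FPKM and 2.75 RPKM. All 18 tRNA synthetases ranked lower in the tissue, 5 of them by at least 25 points. Over all genes 49.5% ranked lower, and 10.7% were lower and 10.7% higher by at least 25 points. Of the 11 purine genes 0 were lower by that much and 1 was higher. Of the 8 ranked genes of the mTORC1 and MYC list, which leave out Myc and Mycn, 0 were lower or higher by that much.

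The tissue and the culture also differed in the markers of dividing cells and of other cell types. A list of 18 mitosis and replication genes, chosen after values had been seen, summed to 1281 to 1544 FPKM in the 4 culture libraries and to 6.35 RPKM in the tissue. All 18 were at least 25 points lower in the tissue, and 3 of them, Cdk1, Ccnb2 and Birc5, were listed at 0. The 5 skeletal muscle markers summed to 1208 RPKM in the tissue, and the 2 of them with culture values to between 1.43 and 7.08 FPKM. Endothelial markers (4 genes) summed to 124.7 RPKM, red blood cell markers (4 with values) to 208 RPKM and macrophage markers (4 with values) to 25.5 RPKM. Their part in the lower ranks of Psat1, Phgdh, Shmt2, Mthfd2 and Trib3 was not tested.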

How the data were processed

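RNA was poly(A)-selected, per the labels' protocols. Culture values are FPKM per gene symbol, as deposited by the authors, and tissue values are RPKM as the authors deposited them, by RefSeq transcript. The submitters' processing notes name TopHat2 2.0.10, Cufflinks 1.0.3, CASAVA 1.8.2 and SICER with build mm9; the annotation is not stated in the sources used here. Each culture gene reached at least 1.00125 FPKM in 1 of the 4 libraries, so genes under that level are not in the tables and list counts cover only members with values. Absence of a gene does not by itself show a low level. Hspd1 and Cct6a, which had no culture value, were at 69.5 and 30.8 RPKM in the tissue. Of 83 samples 5 were used, grouped by title, and 78 were not analysed here.

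Differences are of log2(FPKM + 1), which understates those of low genes; genes were compared when the larger value was at least 1. Of the tissue transcripts 28436 (97.8%) matched 1 symbol in a RefSeq table of GRCm38.p6, and each gene took its highest transcript; 10995 culture genes had a tissue value. The worth of 1 tissue read was estimated from 46 receptor transcripts, of which 34 gave whole reads within 0.01 of a read; it covers counting error only. Promoter sequences came from RefSeq, GRCm38.p6. The members and the lists were chosen with earlier results of these data known. Genes named are all 9 members, the 3 nearest profiles, the defining markers and genes with the largest differences per list and comparison. The last were taken from the 3 largest each way past the size rule, and not all of those are named. The glutathione synthesis list is not described. A gene that this rule takes is not reported here. Outside that rule, the tissue values of listed genes were chosen after values were seen, and some genes are named as neighbours or as lacking culture values. Some listed genes stand in more than 1 list. The size rule was run on simulated data with noise of an assumed size, so that run does not measure the spread between replicates here. Python 3.11.15, pandas 2.3.3, numpy 2.4.6, scipy 1.17.1 and matplotlib 3.10.9 were used.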

Additional observations from a re-analysis of the deposited data

How the results depend on the processing

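With 1 library per time or tissue, no replicate could be left out. No paired analysis was possible because each group holds 1 library and no result comes from a test. The alternatives were pseudocounts of 0.1 and 5, no filter or a larger value of at least 10, a common total, median-ratio factors and a 1.5-fold rule. For the tissue they were the mean of transcripts, all genes ranked and the other days. Of 261 values for single genes under these alternatives, 254 kept their direction and side of the rule. Those under the filter settings could not change, because each of the 9 genes reached 10 FPKM in every comparison. They are part of the 254 and say nothing about robustness. Rescaled to a common total, the log2 difference of Phgdh at day 0 against day -3 was 0.051 and that of Shmt2 at day 7 against day -3 was 0.0010, so both turned sign; this scaling moved the median of all genes from 0.06 to 0.25 and from 0.07 to 0.20. Of the genes counted at day 0 against day -3, 67.6% were higher, against 80.6% with a common total, 55.0% with a pseudocount of 5 and 55.7% with a larger value of at least 10. The number of ATF4 targets counted as higher ranged from 8 to 12 at day 0 against day -3, from 5 to 7 at day 7 against day 2 and from 12 to 14 over the whole course. The rank difference of Psph was -6.20, -9.64 and -15.7 points against days -3, 0 and 2, that of Ddit3 4.51 and that of Trib3 -3.93 against day -3. With the 1.5-fold rule 2 of the 9 genes, 1 higher and 1 lower, were apart at day 2 against day 0, where 35.6% of all genes were. The motifs TTGCATCA and TGATGCAA, reverse complements of each other, were in 0 of the 10 promoter windows of the 9 genes. The depth of the culture libraries is unknown, and the reads behind the low tissue values were not computed.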
